A study of Homo sapiens with 10 samples.

Results

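Subclones 2, 3 and 5 of the human glioma line U87MG are 3 of 10 subclones profiled on expression arrays, and they were set against the other 7, subclones 1, 6, 8, 9, 10, 11 and 12. They were selected on the likeness of their measured expression values, as the 3 pairs of arrays among them were the most alike of all 45 pairs. The same values that chose them are therefore the values described here, and every difference between the trio and the rest is given as a description, with no test. U87MG is an adherent line grown from a human glioma and has long served as a laboratory model of glioblastoma. Each subclone was expanded from a colony that arose from 1 cell of a thinly plated parental culture. All 10 were grown in serum-supplemented medium, with no drug or other treatment named, and were harvested in logarithmic growth. Each subclone is 1 clone measured on 1 array, so the spread given for a group is the spread between clones, and no subclone has a replicate of its own.

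A cell line is a population whose members can differ in chromosome content and in heritable expression states, and a colony grown from a single cell carries forward whatever state its founder had. Glioma lines of the mesenchymal kind make a connective-tissue-like matrix of collagens and small proteoglycans. They can also secrete chemokines and interleukins under the transcription factor NF-kB, and hypoxia, amino acid supply and sterol supply each govern a well-known programme of target genes.

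Values are log2 expression values, 1 per gene symbol, and each array was aligned to a common median before comparison. Of 11880 symbols, 7095 reached at least 5.00 on 1 or more arrays, which is the median of all values, and only these were compared. PCTK3, with a highest value of 5.0017, lay just inside that limit, and KCNJ13, at 5.0007, just outside it. The deposited array medians were 5.10, 5.11 and 5.10 in subclones 2, 3 and 5, against 4.87 to 5.11 in the other 7. On average the medians of the trio were 0.13 higher, and all differences below are relative to that shift. No value resolves whether a transcript was present in fewer cells of a subclone or at a lower amount per cell, because the arrays measured bulk RNA.

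Likeness was measured as Pearson's correlation of values centred on each gene's mean over all 10 arrays, across the 7095 genes. It was 0.59 between subclones 2 and 3, 0.68 between 2 and 5, and 0.59 between 3 and 5. The mean of the 3 was 0.62, and it was 0.37 without subclones 9, 10 and 11. The 21 pairs that join a member of the trio to another subclone gave −0.58 to 0.47, with a median of −0.26. The 21 pairs among the other 7 gave −0.46 to 0.32, with a median of −0.06. Subclone 8 stood nearest to the trio, with 0.47 to subclone 2, 0.07 to subclone 3 and 0.17 to subclone 5. These correlations are across genes, which are not independent replicates, and centring on shared means ties all pairs to one another.

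**Figure D1:**
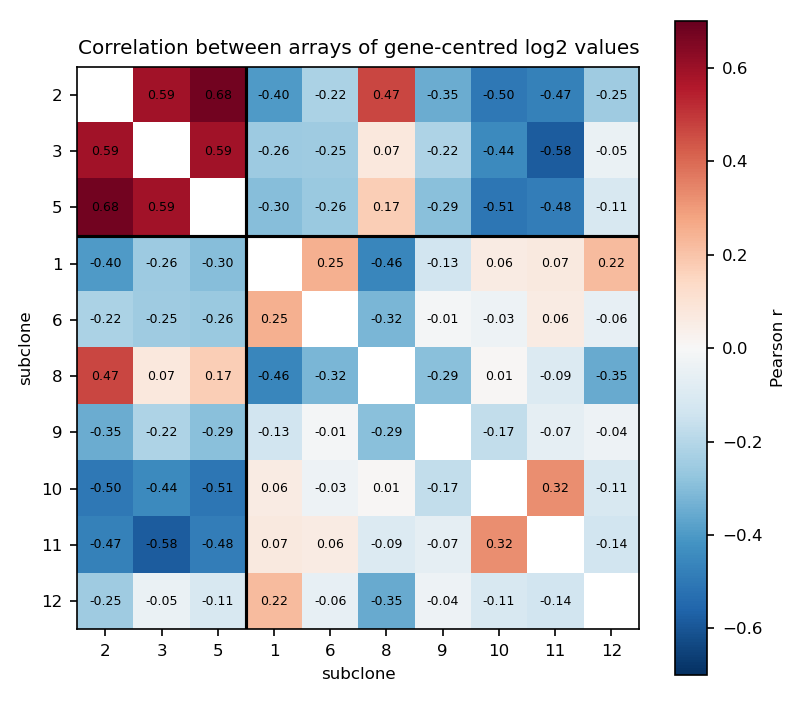
Gene-centred correlation for each of the 45 pairs of subclones, drawn as a matrix with the subclone on both axes and Pearson's r as colour and number, the trio first. The 3 pairs within the trio lie at 0.59 to 0.68, above the highest pair of a trio member with another subclone, at 0.47, and the highest pair among the other subclones, at 0.32.

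A gene was counted as higher when all 3 values of the trio lay above all 7 others and the group means differed by at least 1 log2 unit, which is 2-fold. By this rule 76 genes were higher (1.07% of those compared) and 34 were lower (0.479%). Without the minimum difference, 323 genes lay wholly above the other subclones (4.55%) and 532 wholly below (7.5%). The higher genes made up 69.1% of the 110 counted. That share was 94.2% with values as deposited and 61.7% with each array aligned on its 75th percentile. Leaving out subclone 8 gave 166 higher and 62 lower genes, leaving out subclone 3 gave 136 higher genes, and leaving out subclone 9 gave 72 lower genes. For 9 of the higher genes all 7 other subclones were under the filter value, and for 12 of the lower genes all 3 of the trio were, so these genes passed the filter only through the group where they were high. Their differences are set against values under the filter and give only the direction. Subclone 8 was the nearest of the other subclones to the trio for 34 of the 76 higher genes and 14 of the 34 lower ones.

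COL3A1, a fibrillar collagen chain of loose connective tissue, had the largest difference of all higher genes, and LUM and MGP were the other 2 counted as higher in the 3 matrix lists. COL3A1 read 9.95, 9.50 and 9.18 in subclones 2, 3 and 5, against 3.90, 4.42 and 8.00 as the lowest, median and highest of the other 7. It averaged 9.54 ± 0.39 in the trio (SD, n = 3) and 5.36 ± 1.59 in the other subclones (SD, n = 7), a difference of 4.19 log2 units or 18.2-fold. The groups did not overlap, and subclone 12 held the highest of the other values. LUM, which encodes lumican, a small leucine-rich proteoglycan that binds collagen fibrils, read 10.15, 10.15 and 10.23 in subclones 2, 3 and 5, against 3.61, 7.81 and 9.03 as the lowest, median and highest of the other 7. Its difference was 3.07, and the 3 values of the trio lay within a narrow band above subclone 1. MGP, the matrix Gla protein that inhibits calcification, read 7.65, 5.87 and 5.93 in subclones 2, 3 and 5, against 3.23, 3.50 and 5.04 as the lowest, median and highest of the other 7, a difference of 2.71. Subclone 2 was well above subclones 3 and 5 for this gene, and subclone 8 came next. MGP passed the filter only through the trio, and its call was lost with a filter on the mean value. OLFML3, a secreted olfactomedin-domain protein, read 9.27, 9.56 and 10.11 in subclones 2, 3 and 5, against 4.28, 8.00 and 8.33 as the lowest, median and highest of the other 7, a difference of 3.04, and is in none of the lists.

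The rest of the matrix did not follow as a block. Over all genes 1.07% were counted as higher and 0.479% as lower. Of 14 collagens past the filter, COL3A1 was the only one counted as higher, none was lower, and the median difference was 0.25, beside −0.04 over all genes. It was 0.13 without subclone 3, 0.38 without subclone 12 and 0.01 after the length groups described below were subtracted. Of 13 proteoglycans, fibrillins and microfibril proteins, 2 were higher and none was lower, with a median of 0.51, which was 0.25 without subclone 9 and −0.10 with no filter. Of 14 collagen-modifying enzymes none was higher and 1 was lower, with a median of 0.49, which was 0.30 without subclone 9. Subclone 9 had the lowest median of all 10 for each of these lists, and the trio overlapped the other subclones on each. The collagen median was 0.44 in subclone 12, against 0.21, 0.21 and −0.03 in subclones 2, 3 and 5. The proteoglycan median was 0.51 in subclone 8, against 0.51, 0.14 and 0.09 in the trio. For collagen-modifying enzymes subclone 8 read 0.54, against 0.48, 0.22 and 0.37.

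Of 13 immunoglobulin-type and other adhesion molecules, 3 were higher and none was lower, beside 1.07% and 0.479% over all genes. The median difference of the 13 was 0.29, with 8 positive and 5 negative. Their list median was 0.52, 0.12 and 0.10 in subclones 2, 3 and 5, against 0.33 in subclone 8, so the groups overlapped on it. CD24, a small glycosylated surface protein that binds selectins and Siglec receptors, read 9.17, 9.09 and 7.96 in subclones 2, 3 and 5, against 3.57, 4.83 and 7.30 as the lowest, median and highest of the other 7. Its difference was 3.77, or 13.7-fold, and subclone 8 was the nearest below the trio. AMIGO2, a leucine-rich adhesion protein, read 8.66, 9.07 and 8.64 in subclones 2, 3 and 5, against 3.81, 6.14 and 7.41 as the lowest, median and highest of the other 7, a difference of 2.91. CADM1, an immunoglobulin-type adhesion molecule of epithelia and neurons, read 7.24, 5.81 and 6.65 in subclones 2, 3 and 5, against 3.72, 4.21 and 5.19 as the lowest, median and highest of the other 7, a difference of 2.38. For CADM1 the other subclones lay close together, apart from subclone 8, and its call was lost with a filter on the mean value.

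CFI, the serine protease complement factor I that cleaves C3b and C4b, read 9.85, 9.57 and 9.68 in subclones 2, 3 and 5, against 3.44, 6.25 and 8.29 as the lowest, median and highest of the other 7. The difference was 3.54, or 11.6-fold, and its trio values were close together while the others spread widely. It was the only 1 of 9 complement genes counted as higher, none was lower, and the median of the 9 was 0.32, or 0.53 without subclone 3. RARRES3, a retinoid-induced phospholipid-modifying enzyme, read 7.57, 7.27 and 8.01 in subclones 2, 3 and 5, against 3.90, 5.50 and 6.26 as the lowest, median and highest of the other 7. CYTIP, which binds cytohesins and was described in leukocytes, read 7.21, 7.48 and 6.86 in subclones 2, 3 and 5, against 3.02, 4.91 and 6.50 as the lowest, median and highest of the other 7. CTSO, a lysosomal cysteine protease, read 8.00, 8.15 and 7.90 in subclones 2, 3 and 5, against 4.82, 5.48 and 7.65 as the lowest, median and highest of the other 7. Each of these 3 genes was at least 2.05 higher in the mean and did not overlap, although subclone 8 came within a short distance for CTSO.

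Among regulators of differentiation and growth factor signalling, DLX5 had the largest difference. DLX5, a homeobox factor of bone and forebrain development, read 7.69, 8.16 and 8.13 in subclones 2, 3 and 5, against 3.24, 5.08 and 6.49 as the lowest, median and highest of the other 7, a difference of 3.00. SMAD1, which carries BMP signals to the nucleus, read 7.03, 7.09 and 7.42 in subclones 2, 3 and 5, against 4.65, 5.77 and 6.53 as the lowest, median and highest of the other 7, a difference of 1.57. Of 12 genes of the BMP pathway, SMAD1 was the 1 counted as higher, none was lower, 10 had a positive difference and the median was 0.73. Over all genes 1.07% were counted as higher and 3263 of 7095 had a positive difference. The list median was 0.29, 0.42 and 0.64 in subclones 2, 3 and 5, against −0.39 to −0.03 in the other 7, so the groups did not overlap on it. ID2 and ID3, inhibitors of basic helix-loop-helix factors and classic BMP targets, both differed by 1.04, but the trio overlapped the others for each.

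The Wnt receptor FZD1 was the 1 of 10 Wnt pathway genes counted as higher, at 6.20, 6.57 and 6.42, against 4.89, 5.22 and 5.81 as the lowest, median and highest of the other 7. Its difference of 1.02 was close to the minimum. EPHA2, an ephrin receptor tyrosine kinase often raised in glioma, read 7.67, 8.29 and 7.55 in subclones 2, 3 and 5, against 5.58, 6.13 and 6.67 as the lowest, median and highest of the other 7, a difference of 1.69. TGFB1, the ligand TGF-beta 1, read 8.03, 8.09 and 8.30 in subclones 2, 3 and 5, against 6.50, 7.14 and 7.76 as the lowest, median and highest of the other 7, a difference of 1.01. AMOTL2, an angiomotin that binds YAP, read 7.92, 7.62 and 7.84 in subclones 2, 3 and 5, against 4.38, 7.01 and 7.57 as the lowest, median and highest of the other 7, a difference of 1.43. FZD1, TGFB1 and AMOTL2 were no longer counted once subclones 9, 10 and 11 were left out. The call of FZD1 was also lost without subclone 3, 8, 9, 10 or 11 alone, and that of TGFB1 without subclone 1, 5, 9 or 10 alone. Both were lost with arrays aligned on the 75th percentile. TGFB1 and AMOTL2 were lost with group medians, and TGFB1 after the length groups described below were subtracted.

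**Figure D2:**
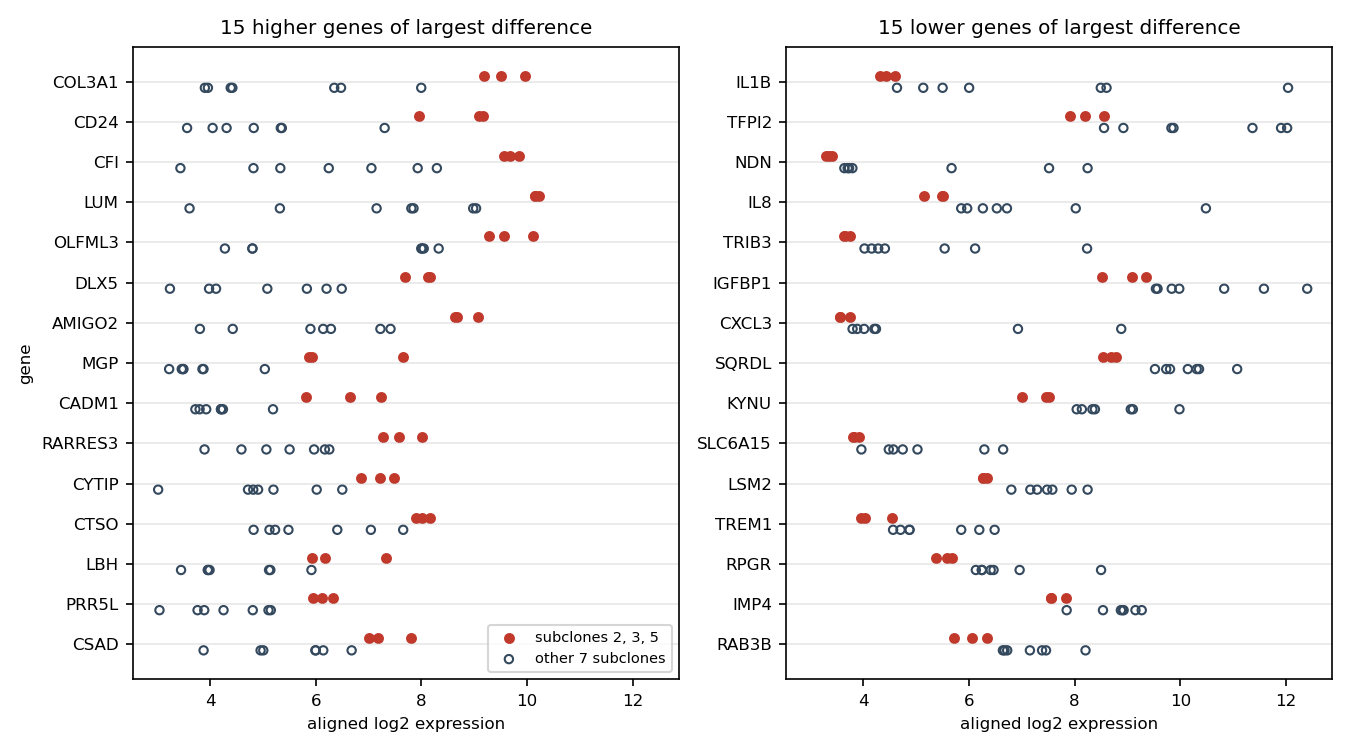
Aligned log2 value of each subclone for the 15 higher and the 15 lower genes with the largest difference of group means, the trio drawn apart from the other 7. COL3A1 stands at 9.18 to 9.95 in the trio and 3.90 to 8.00 in the others, and IL1B at 4.32 to 4.60 in the trio and 4.64 to 12.04 in the others.

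Secreted inflammatory mediators led the lower side, and subclone 9 held the highest value of IL1B, IL8 and CXCL3. IL1B, the proinflammatory interleukin 1 beta, read 4.43, 4.32 and 4.60 in subclones 2, 3 and 5, against 4.64, 6.00 and 12.04 as the lowest, median and highest of the other 7. The difference was −2.75, yet the gap between the groups was small. IL1B was not counted with values as deposited, with arrays aligned on the 75th percentile, or after the length groups described below were subtracted. IL8, the neutrophil chemokine now named CXCL8, read 5.15, 5.52 and 5.49 in subclones 2, 3 and 5, against 5.85, 6.53 and 10.48 as the lowest, median and highest of the other 7, a difference of −1.74. CXCL3, a related neutrophil chemokine, read 3.56, 3.57 and 3.75 in subclones 2, 3 and 5, against 3.80, 4.21 and 8.88 as the lowest, median and highest of the other 7, a difference of −1.51. For IL1B and CXCL3 the trio was under the filter value. The calls of IL8 and CXCL3 were lost without subclones 9, 10 and 11, and that of CXCL3 also without subclone 9 alone. CXCL3 was also not counted with values as deposited, with arrays aligned on the 75th percentile or with a filter on the mean value. Group medians and subtraction of the length groups ended its call as well. CXCL3 has close paralogues, and probes for such genes may share signal.

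Of 17 cytokine and NF-kB target genes, 3 were lower and none was higher, 16 had a negative difference, and the median was −0.94. Over all genes 0.479% were lower, 3832 of 7095 had a negative difference, and the median was −0.04. The list median was −0.95, −0.95 and −0.60 in subclones 2, 3 and 5, against 3.86 in subclone 9 and −0.59 to 0.19 in the remaining 6. Subclone 12, at −0.59, lay just above subclone 5, so the gap between the groups was small beside the distance to subclone 9.

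The promoters of IL8 and CXCL3 are shown because NF-kB sites in them are textbook features of these genes, and that of CFI because it is a strongly higher gene on the same chromosome. Each run is the 150 bases before the gene's start on its own strand, from RefSeq on GRCh38.p14. Capitals mark GGAATTTCC, an NF-kB-type motif, and TATAAA, which is the core promoter element bound by TBP; both were searched on both strands, and the motifs do not overlap one another. The windows are chr4:73740419-73740568 on the plus strand for IL8, chr4:74038690-74038839 on the minus strand for CXCL3 and chr4:109802000-109802149 on the minus strand for CFI.
IL8: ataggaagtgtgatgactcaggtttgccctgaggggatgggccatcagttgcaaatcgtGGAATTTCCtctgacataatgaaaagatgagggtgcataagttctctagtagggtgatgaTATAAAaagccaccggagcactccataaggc
CXCL3: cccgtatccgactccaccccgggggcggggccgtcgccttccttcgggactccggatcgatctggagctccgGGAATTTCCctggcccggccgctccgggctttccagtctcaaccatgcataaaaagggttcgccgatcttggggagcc
CFI: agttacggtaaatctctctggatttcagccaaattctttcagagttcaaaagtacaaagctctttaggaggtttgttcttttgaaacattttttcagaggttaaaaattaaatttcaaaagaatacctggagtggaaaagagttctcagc
The NF-kB-type motif began 91 bases before the start of IL8 and 78 bases before that of CXCL3, and the TBP element of IL8 began 31 bases before its start. Neither string is in the window shown for CFI. Across promoter windows of 300 bases, 250 before and 50 after the start, GGAATTTCC was found for 0.560% of 27305 genes. It was in 1 of 60 higher genes, LPHN2, and 2 of 24 lower genes that had a promoter in the table. Those 2 were IL8 and CXCL3 themselves, picked here for their known NF-kB sites. The count of lower genes therefore cannot show an excess over all genes. TATAAA was found for 14.0% of all genes, in 6 of the 60 higher genes and in 4 of the 24 lower ones. A match describes the letters in a window and is not a measured site.

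TRIB3 and DDIT3, both induced by the integrated stress response, were also counted as lower. TRIB3, a pseudokinase, read 3.76, 3.64 and 3.66 in subclones 2, 3 and 5, against 4.03, 4.41 and 8.24 as the lowest, median and highest of the other 7. The trio was under the filter value for TRIB3, and its call was lost with a filter on the mean value, with group medians, and without subclones 9, 10 and 11. DDIT3, the stress transcription factor CHOP, read 6.81, 6.95 and 7.04 in subclones 2, 3 and 5, against 7.14, 7.63 and 9.48 as the lowest, median and highest of the other 7, a difference of −1.13. Its call was lost without subclone 9 alone, without subclone 11 alone, with values as deposited and after the length groups described below were subtracted. It was also lost with group medians and without subclones 9, 10 and 11. The list of 18 amino acid and integrated stress response genes held 2 lower and none higher, with a median of −0.60. Over all genes 0.479% were lower and the median was −0.04. The list median was −0.58 to −0.26 in the trio, against −0.43 to 0.14 in subclones 1, 6, 8, 10 and 12, 0.62 in subclone 11 and 1.15 in subclone 9. Subclones 1 and 6 lay within the range of the trio, and without subclones 9, 10 and 11 the list's median difference was −0.14. TRIB3 was highest in subclone 11 and DDIT3 in subclone 9.

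KYNU and WARS, the only members counted as lower of the 7 tryptophan, kynurenine and AHR genes, encode kynureninase and the cytosolic tryptophanyl-tRNA synthetase. KYNU read 6.998, 7.46 and 7.52 in subclones 2, 3 and 5, against 8.04, 8.38 and 9.98 as the lowest, median and highest of the other 7, a difference of −1.39. WARS read 7.13, 7.43 and 7.46 in subclones 2, 3 and 5, against 7.92, 8.34 and 9.30 as the lowest, median and highest of the other 7, a difference of −1.06, and its call was lost without subclone 2, 9 or 11. The calls of KYNU and WARS were both lost with group medians and without subclones 9, 10 and 11, and that of WARS also with values as deposited. The median of the 7 was 0.01, with 4 positive and 3 negative, and none of the other 5 was counted in either direction. TDO2 differed by 1.64, opposite in direction to KYNU, and was not counted.

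SQRDL and LSM2 were the only lower genes still counted under all 17 alternatives that kept the minimum difference. SQRDL, the mitochondrial sulfide quinone reductase, read 8.54, 8.68 and 8.79 in subclones 2, 3 and 5, against 9.52, 10.14 and 11.08 as the lowest, median and highest of the other 7, a difference of −1.47. LSM2, an RNA-binding subunit of the LSm ring of the spliceosome, read 6.35, 6.26 and 6.27 in subclones 2, 3 and 5, against 6.80, 7.48 and 8.25 as the lowest, median and highest of the other 7, a difference of −1.21. For both genes the trio stood clear of all 7 others, and leaving out any 1 subclone did not end the call. Of the 76 higher genes, 29 were kept under all 17, among them COL3A1, CD24, CFI, LUM, OLFML3, DLX5, AMIGO2, SMAD1 and EPHA2.

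Several other secreted or growth-related genes were lower. TFPI2, a Kunitz-type inhibitor of matrix serine proteases, read 8.20, 8.55 and 7.92 in subclones 2, 3 and 5, against 8.56, 9.87 and 12.02 as the lowest, median and highest of the other 7, a difference of −2.13. The gap between subclone 3 and subclone 12 was only 0.003. The call of TFPI2 was lost with values as deposited, with arrays aligned on the 75th percentile and after the length groups described below were subtracted. IGFBP1, which binds insulin-like growth factors, read 9.09, 8.51 and 9.34 in subclones 2, 3 and 5, against 9.54, 9.98 and 12.40 as the lowest, median and highest of the other 7, a difference of −1.55. The call of IGFBP1 was lost with group medians, without subclones 9, 10 and 11, and after the length groups were subtracted. NDN, an imprinted gene encoding necdin, read 3.40, 3.35 and 3.30 in subclones 2, 3 and 5, against 3.64, 3.80 and 8.25 as the lowest, median and highest of the other 7. It was high in subclones 11, 9 and 1, at 8.25, 7.52 and 5.67, while the remaining 4 lay between 3.64 and 3.80, close to the trio. NDN passed the filter only through those 3 subclones. Its call was lost with a filter on the mean value, with group medians, and without subclones 9, 10 and 11. MMP1, an interstitial collagenase, read 3.39, 3.43 and 3.27 in subclones 2, 3 and 5, against 3.57, 3.78 and 8.32 as the lowest, median and highest of the other 7, and its call was lost without subclone 9. MMP1 passed the filter only through subclone 9, and every other subclone, in the trio or not, was under the filter value. Its call was also lost with values as deposited, with a filter on the mean value, with group medians and after the length groups were subtracted.

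RAB3B, a small GTPase of vesicle release, read 6.06, 6.35 and 5.72 in subclones 2, 3 and 5, against 6.64, 7.15 and 8.21 as the lowest, median and highest of the other 7. TAP1, a subunit of the peptide transporter for MHC class I, read 5.99, 6.41 and 6.44 in subclones 2, 3 and 5, against 6.62, 7.26 and 8.00 as the lowest, median and highest of the other 7. IMP4, a component of the small-subunit processome, read 7.56, 7.55 and 7.83 in subclones 2, 3 and 5, against 7.85, 8.91 and 9.27 as the lowest, median and highest of the other 7. Each was at least 1.03 lower in the mean, and TAP1 was the only 1 of 13 MHC class I and peptide loading genes counted. The call of RAB3B was lost without subclone 5 or 9, and that of TAP1 without subclone 1, 2 or 11. TAP1 was also not counted with values as deposited, with group medians, without subclones 9, 10 and 11, or after the length groups were subtracted. The gap for IMP4 was only 0.017. Its call was lost with values as deposited and with arrays aligned on the 75th percentile.

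Some lists differed by small amounts in nearly every member. Over all genes 3832 of 7095 had a negative difference, and 7.5% lay wholly below the other subclones. That share was 14.6% in the highest of 4 groups by mean level and 12.1% in the shortest of 4 groups by gene length. All 26 ribosomal protein genes had a negative difference, with a median of −0.38, and 17 lay wholly below the other subclones. None was counted, since those 17 were under the minimum of 2-fold and RPL38, at −1.06, overlapped the other subclones. All 23 oxidative phosphorylation genes were also negative, with a median of −0.36 and 8 wholly below. CYC1, the cytochrome c1 subunit of complex III, was the 1 of them counted as lower, at 9.16, 8.61 and 9.18, against 9.37, 10.04 and 10.44 as the lowest, median and highest of the other 7. Its call was lost without subclone 3, with values as deposited, with group medians and after the length groups described below were subtracted. Of 16 cholesterol synthesis genes 14 were negative, 8 lay wholly below and none reached 2-fold, with a median of −0.45. FDPS, the farnesyl diphosphate synthase, read 7.71, 7.57 and 7.02 in subclones 2, 3 and 5, against 8.17, 8.41 and 8.65 as the lowest, median and highest of the other 7, a difference of −0.98.

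Hypoxia genes ran the other way. Of 18 past the filter 16 had a positive difference, beside 3263 of 7095 over all genes. The median of the 18 was 0.49, yet none was counted, because the trio overlapped the others. Without subclones 9, 10 and 11 that median was 0.31. The list median was 0.48, 0.07 and 0.34 in subclones 2, 3 and 5, against 0.59 in subclone 8 and −0.87 in subclone 9. CA9, carbonic anhydrase 9 and a direct target of hypoxia-inducible factors, read 11.74, 11.42 and 11.24 in subclones 2, 3 and 5, against 7.06, 10.91 and 11.67 as the lowest, median and highest of the other 7, a difference of 1.12, which was 0.57 without subclone 9. Glycolysis genes, with a median of 0.04 over 19, lay near the median of all genes.

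**Figure D3:**
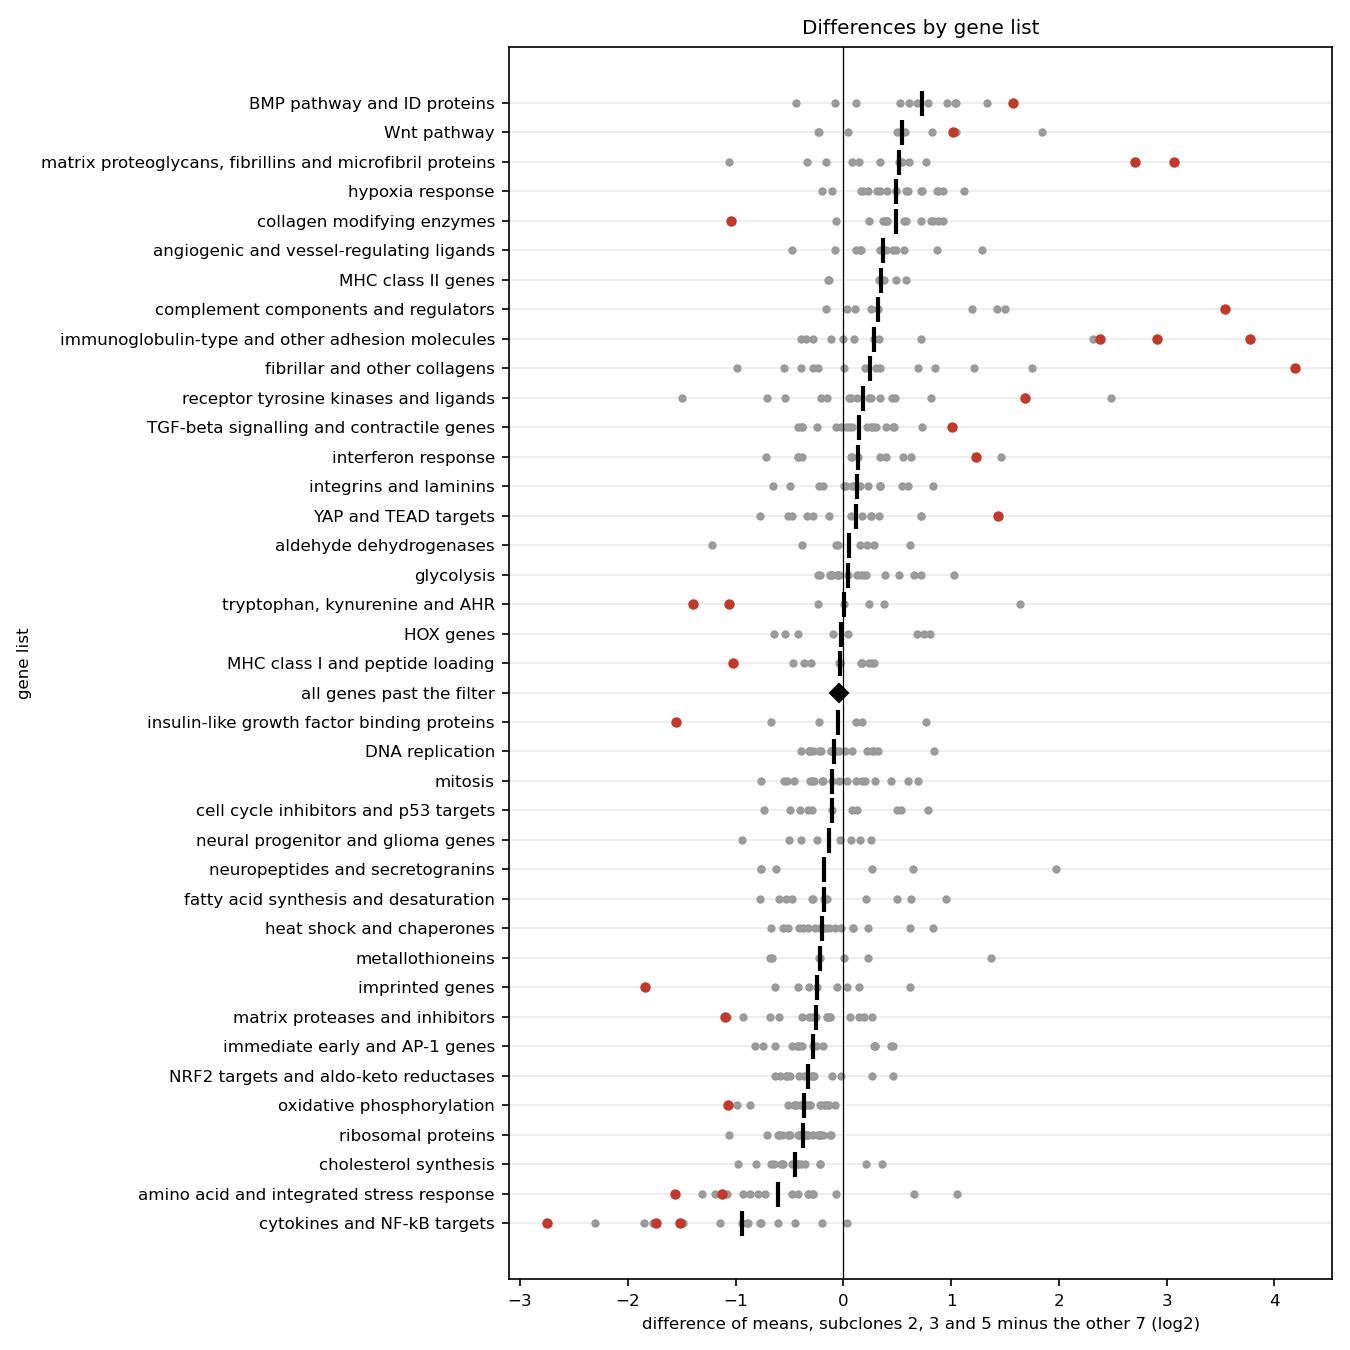
Difference of group means, trio minus the other 7, in log2 units for each gene of each list. Grey points are genes not counted, red points are genes counted as higher or lower, bars are list medians and the diamond is the median of all genes. BMP pathway genes have the highest median, at 0.73, and cytokine and NF-kB target genes the lowest, at −0.94.

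The differences also followed gene length and level, and these values stand beside the list results. Over 4 equal groups of gene length from shortest to longest, each of 1752 genes, the median difference was −0.19, −0.08, 0.00 and 0.11. The share wholly above the others was 2.91%, 3.42%, 4.39% and 7.42%, and the share wholly below was 12.1%, 8.56%, 5.14% and 3.88%. In the highest of 4 groups by mean level, 14.6% lay wholly below and 1.86% wholly above. The part of length and level in the list differences was not tested. After the median of each of 10 length groups was subtracted per array, 61 genes were higher, of which 50 were among the 76, and 42 were lower, of which 17 were among the 34.

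**Figure D4:**
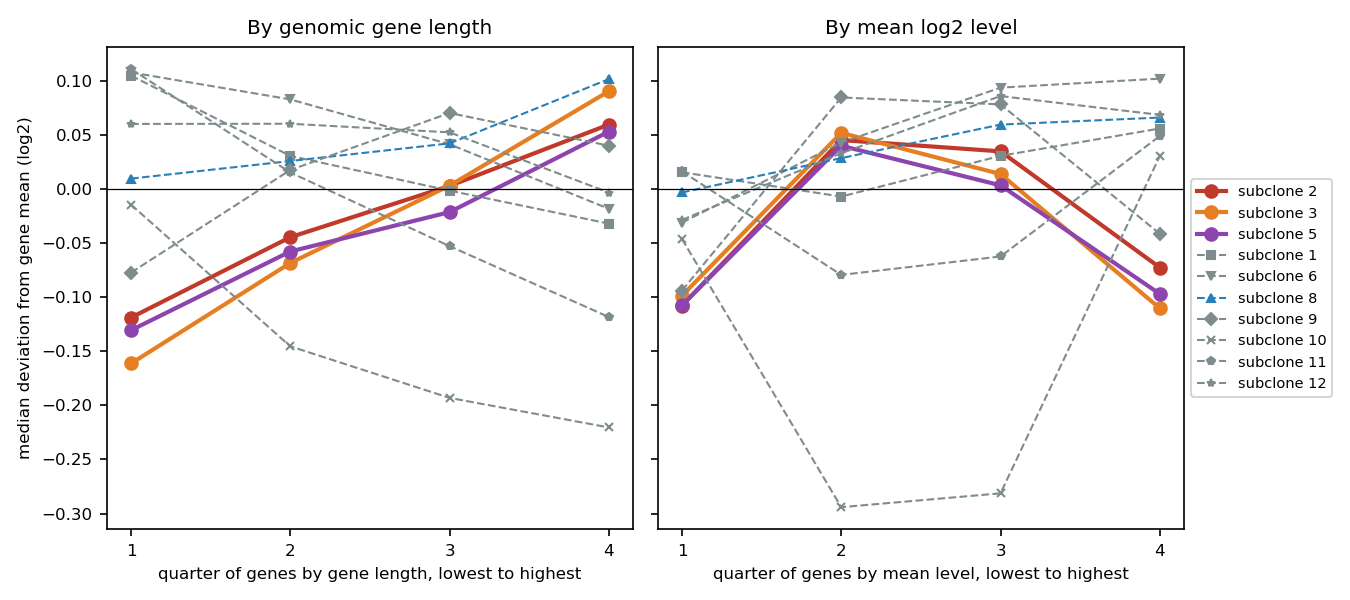
Median deviation from the gene mean, in log2 units, for each subclone over 4 groups of genes by length and 4 by mean level. In the shortest group the trio reads −0.12, −0.16 and −0.13, and in the longest 0.06, 0.09 and 0.05.

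Chromosome 4 stood out by position. Its 227 genes past the filter had a median difference of 0.35, beside −0.04 over all genes, and the next highest of the chromosomes compared was chromosome 3, at 0.14. It held 11 of the 76 higher genes, namely PIGG, HAUS3, FAM193A, KIAA0232, ACOX3, SEL1L3, ATP10D, CFI, SMAD1, CTSO and CPE. That was 11 of its 227 genes, beside 76 of 7095 (1.07%) over all genes. Chromosome 3 held 9 of the higher genes among its 426, and chromosome 11 held 8 among its 432. The share wholly above the other subclones was 9.25% on chromosome 4, close to 8.69% on chromosome 3, beside 4.55% over all genes. Chromosome 4 also held 2 of the 34 lower genes, IL8 and CXCL3. FAM193A, a gene of little known function, read 7.45, 7.24 and 7.74 in subclones 2, 3 and 5, against 4.69, 5.75 and 6.84 as the lowest, median and highest of the other 7. PIGG, which modifies glycosylphosphatidylinositol anchors, read 8.57, 8.15 and 8.70 in subclones 2, 3 and 5, against 6.05, 6.94 and 7.94 as the lowest, median and highest of the other 7. The difference was 1.76 for FAM193A and 1.38 for PIGG, and in both subclone 8 was the nearest to the trio.

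In 282 blocks of about 25 neighbouring genes over the genome, 4 of the 9 blocks of chromosome 4 had the highest medians of all. They were the first 3 blocks of the chromosome, at 0.60, 0.54 and 0.60, and the last, at 0.50, while the other 273 blocks outside chromosome 4 ran from −0.39 to 0.36. Over the first 3 blocks the medians were 0.56, 0.47 and 0.51 in subclone 2, 0.21, 0.16 and 0.14 in subclone 3, and 0.53, 0.53 and 0.60 in subclone 5. Subclone 8 read 0.21, 0.41 and 0.45 there, and the remaining 6 lay between −0.53 and 0.13. In the last block subclone 8 read 0.40, above subclones 2, 3 and 5 at 0.23, 0.30 and 0.31. Over the whole of chromosome 4 subclone 8 had the highest median of all subclones, at 0.37, against 0.34, 0.23 and 0.15 in the trio. The high values on this chromosome are therefore not particular to the trio. The trio was not alike along the whole chromosome. In blocks 4 to 7 subclone 5 read −0.25, −0.17, −0.13 and −0.07, while subclones 2, 3 and 8 were all positive. DNA copy number was not analysed here. Without the filter on low values its median was −0.03, beside −0.18 over all genes.

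**Figure D5:**
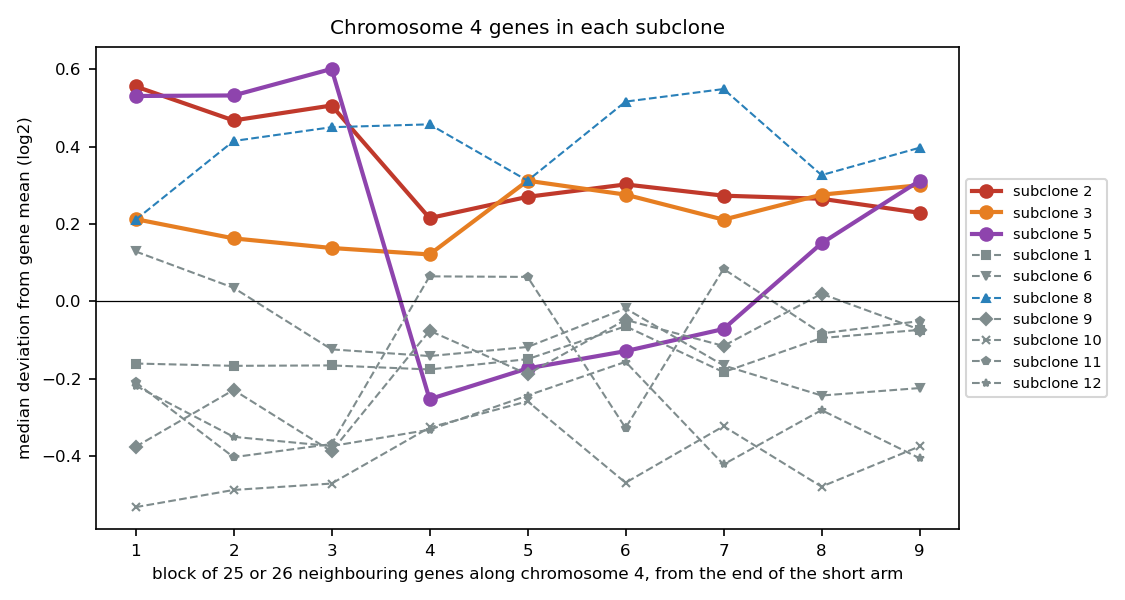
Median of each block of about 25 genes along chromosome 4, in gene order, for each subclone. Subclone 5 is high in blocks 1 to 3, at 0.53, 0.53 and 0.60, and low in blocks 4 to 7, at −0.25 to −0.07. Subclone 8 is positive in every block.

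The 3 subclones were alike but not the same. The median range between them was 0.29 log2 units, 5614 genes (79.1%) differed by under 0.5, and 221 (3.11%) by at least 1. Subclone 3 stood at least 1 unit above both of the others for 18 genes and below both for 31, against 12 and 9 for subclone 2, and 15 and 16 for subclone 5. MARCKSL1, a MARCKS-family actin regulator, read 7.61, 5.51 and 4.91 in subclones 2, 3 and 5. PADI2, which converts arginine to citrulline, read 8.23, 7.07 and 5.19 in the same order. Both were high in subclone 2.

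CALCB, the beta form of calcitonin gene-related peptide, read 5.17, 7.72 and 5.79 in subclones 2, 3 and 5, and was highest in subclone 3. LBP, the lipopolysaccharide-binding protein, read 8.46, 5.81 and 10.38, and was lowest in subclone 3. HLA-DQA1, an MHC class II chain, read 3.82, 4.55 and 6.66, and was highest in subclone 5. Mitosis genes differed within the trio as well, with list medians of 0.12, 0.33 and −0.63, so subclone 5 was the low one.

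Of 44 markers of other cell types in the table, 7 reached the filter value, and none of these was counted as higher or lower. MITF, a melanocyte transcription factor, read 7.12 to 7.30 in the trio and 6.85 to 7.69 in the other 7. SNAP25, a neuronal vesicle fusion protein, read 7.30 to 7.98 in the trio and 6.18 to 7.42 in the others. KRT8, an epithelial keratin, read 5.00 to 5.52 in the trio and 4.37 to 6.10 in the others, and GAD1, which makes GABA, 5.12 to 5.64 in the trio and 4.29 to 6.42 in the others. The groups overlapped for all 4 of these genes. CD2, CSF1R and SYT1 were the other 3 past the filter, and the groups overlapped for CD2 and CSF1R as well. SYT1, a neuronal marker, lay wholly below the others, at 3.26 to 3.32 in the trio and 3.37 to 6.15 in the others. Its difference of −0.66 was under the minimum for counting, and it passed the filter only through subclone 9. The mean level of 9 endothelial markers was 3.37 to 3.40 in the trio and 3.47 to 4.001 in the other 7. For 11 leukocyte markers it was 3.65 to 3.72 in the trio and 3.51 to 4.44 in the others. Epithelial markers averaged 3.52 to 3.57 in the trio and 3.47 to 4.04 in the others, and melanocyte markers 4.10 to 4.22 in the trio and 4.06 to 4.42 in the others. Oligodendrocyte and neuron markers averaged 4.08 to 4.21 in the trio and 4.20 to 4.45 in the others. The glial markers GFAP and SOX2 were below the filter value on all arrays, with GFAP at 3.26 to 3.49 in the trio and 3.40 to 4.11 in the others, and SOX2 at 3.51 to 3.57 in the trio and 3.56 to 4.01 in the others. The mesenchymal surface marker CD44 read 9.41 to 9.78 in the trio and 9.57 to 10.27 in the others.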

How the data were processed

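Total RNA of 10 U87MG subclones was hybridised to Affymetrix expression arrays, 1 array per subclone. The deposited values are log2 intensities made with RMA, per the submitters' processing notes, and hold 1 value per gene symbol. How probe sets were joined per gene is not given in the sources used here. The log2 scale was read from the range of the values, 2.73 to 13.70.

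Each array's median was subtracted and the median of all values added back. Genes whose highest deposited value was at least 5.00 were kept. The 45 pairs of arrays were compared, and no pair of columns was identical. With 1 array per clone, the number of arrays limits the precision. Group differences are means over clones, with no test, because the arrays that chose the trio also give the differences. Members and gene lists were chosen with earlier results of these data known. The rule for naming took the 15 higher and 15 lower genes of largest difference, up to 3 counted members of each list or otherwise its largest, and 2 genes per within-trio comparison. Not all of these are described in the text. Those left out include PRR5L, CSAD, SLC6A15, LBH, with a gap between the groups of 0.003, and TREM1, with a gap of 0.022. ID2, ID3, FAM193A and PIGG were named after their values were seen. Symbols were matched to RefSeq, 10616 as current and 1082 as older names, and 182 were unmatched. Python 3.11.15, pandas 2.3.3 and numpy 2.4.6 were used, and the scripts were tested on simulated data.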

Additional observations from a re-analysis of the deposited data

Results flagged for a closer look

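Of 74 genes taken by the rule for naming, 11 (14.9%) had 1 of the other 7 subclones far from its neighbours, by Dixon's ratio of the gap to the range. The 95% level was used, which chance passes in about 5% of groups not chosen by their values. Most of the 74 were chosen by their values, and the ratio was not taken over all genes. The 14.9% and the 5% therefore cannot be compared. Subclone 8 was the highest of the other 7 for MGP at 5.04, CADM1 at 5.19 and MARCKSL1 at 6.29, and the lowest for CYC1 at 9.37. Subclone 9 was the highest for MMP1 at 8.32 and SYT1 at 6.15, and the lowest for CA9 at 7.06. Subclone 10 was the highest for RPGR at 8.50 and for CD2 at 6.41. Subclone 11 was the lowest for NES at 5.83, and subclone 1 the highest for LRRC17 at 8.74.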

How the results depend on the processing

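The 76 higher and 34 lower genes became 146 and 9 with values as deposited, 323 and 532 with no minimum difference, and 12 and 2 with at least 2 log2 units. Group medians in place of means gave 21 lower genes. Leaving out 1 subclone at a time gave 64 to 166 higher and 31 to 72 lower genes, a mean correlation within the trio of 0.56 to 0.72, and a chromosome 4 median of 0.31 to 0.43. Without subclones 9, 10 and 11 that mean correlation was 0.37, against 0.62 with all arrays. With no filter the chromosome 4 median was −0.032. The median of HOX genes turned to 0.68 with a filter on the mean, 0.36 without subclones 9, 10 and 11, and 0.33 without subclone 10, in a range of −0.091 to 0.33 when 1 subclone was left out. That of neuropeptides turned to 0.45 with a filter on the mean and 0.35 without subclone 12, in a range of −0.37 to 0.35. With no filter the medians of proteoglycans, adhesion molecules and kynurenine genes were −0.097, −0.050 and −0.215. With group medians SLC27A3 was at 0.88 and p53 targets at 0.22. YAP targets were at −0.081 without subclones 9, 10 and 11, and at −0.074 after the median of each of 10 length groups was subtracted, an alternative chosen after seeing the data. The cause of these changes was not tested. No paired analysis was possible because the groups share no subclone number and no test was made.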

Other observations

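Further genes outside the rule for naming, chosen after their values were seen, were also counted. MYLK, the myosin light chain kinase, read 10.85, 11.64 and 11.42 in subclones 2, 3 and 5, against 9.02, 10.21 and 10.78 as the lowest, median and highest of the other 7. HEG1, a transmembrane protein of endothelial junctions, read 10.24, 9.85 and 10.35 in the trio, against 8.00, 8.72 and 9.54. IRS2, an adaptor of the insulin receptor, read 7.63, 7.68 and 7.39, against 4.37, 6.16 and 7.29. All 3 genes lay above every other subclone. CKS1B, a subunit of cyclin-dependent kinases, read 9.03, 8.52 and 8.03 in the trio, against 9.23, 9.55 and 10.00, and lay below every other subclone.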
